A study of Mus musculus with 289 samples.

Results

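The genes described here are 10 heat shock chaperone genes of mouse epidermal cells, chosen by symbol from a table of 15019 genes, and all 10 were present. They were divided into 6 heat-inducible members, Hspa1a, Hspa1b, Hspb1, Hsp90aa1, Dnajb1 and Hsph1, and 4 constitutive members, Hspa8, Hsp90ab1, Hspa5 and Hspd1. The values are estimated read counts from full-length single-cell RNA-seq (modified Smart-seq2), in which every library was 1 cell. The cells were tomato-positive keratinocytes, labelled t0 and population L1, from tail skin of mice that carry Lrig1-EGFP-ires-CreERT2 and Rosa26-fl/STOP/fl-tdTomato on a CBA C57BL/6 mixed strain. In these animals the Lrig1 locus drives Cre, so hydroxytamoxifen labels Lrig1-positive cells and all their descendants.

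All animals received hydroxytamoxifen once on the skin, vehicle animals included, at 6 to 8 weeks of age according to the methods of the study, and the skin was not wounded. One group was then treated with PRT4165, an inhibitor of Ring1A and Ring1B, the catalytic subunits of the Polycomb complex PRC1, and the other with vehicle. Only female mice were used for single-cell work, and the single-cell data came from 2 independent experiments of 4 biological replicates each. The labels do not say which animals a plate held. The treatment tag of the vehicle plates reads AC and carries a further code that differs from that of the PRT4165 plates, and its meaning is not given. The comparison asks whether PRC1 inhibition in unwounded skin altered the expression of these genes. Each treatment had 2 plates, labelled replicate 1 and replicate 2, and the plate was the replicate. Since each plate held 1 treatment, treatment and plate cannot be told apart within a replicate.

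Heat shock proteins fold new proteins, hold damaged ones in solution and hand others on for degradation. HSP70 proteins take up unfolded stretches, J-domain proteins deliver these to HSP70, nucleotide exchange factors of the HSP110 type release them, and HSP90 matures kinases and receptors. Most cells keep constitutive forms at a high level, whereas the inducible forms are switched on by heat shock factor 1, which binds repeated GAA and TTC units in their promoters. In skin, inducible forms also rise when cells are taken from the tissue with enzymes, and the small heat shock protein encoded by Hspb1 is known from differentiating keratinocytes.

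After the study's filter on cells, 70 and 55 vehicle cells and 72 and 77 PRT4165 cells were left of 289. The plate sums ran from 25761756 to 41592716 counts, and the median cell had 141985 counts on vehicle replicate 1 but between 429383 and 538754 on the other 3 plates. The keratinocyte label was checked on Krt14, which had a count in 93.1% of cells, and on Krt5, which had one in 73.7%. The summed level of 12 immediate early genes, which respond to cell isolation too, lay between 946 and 1596 CPM (counts per 1000000 counts of a plate) and overlapped between the treatments. Marker genes of fibroblasts summed to between 7.28 and 84.3 CPM, those of melanocytes to between 0.699 and 5.03 CPM, and Ptprc of immune cells lay between 0.0780 and 1.11 CPM. Pecam1, the only endothelial marker in the table, had a count in every cell, at 210 to 609 CPM, and so did not mark a cell type here.

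The promoters are shown because heat shock factor 1 acts on inducible forms through them. The division into inducible and constitutive members was a fixed list and was not taken from these sequences. RefSeq promoter windows (GRCm38.p6) were found for 7 of the 10 members. Hspa8, Hsp90aa1 and Hsp90ab1 had none. On either strand, the windows were searched for a heat shock element of 2 units, GAANNTTC or TTCNNGAA, and for one of 3 units, in which a further unit follows after 2 bases of any kind, so that every element of 3 units also holds one of 2. Of all 32851 windows of the same length, 15.1% held an element of 2 units and 0.603% one of 3 units. The endoplasmic reticulum stress element, CCAAT and CCACG set 9 bases apart, through which the unfolded protein response acts, was in 0.119% of windows. The 3 stretches that follow end at the base before the RefSeq start, with the fixed bases of 2-unit elements in capitals, and were read from chr17:34972157-34972276 on the minus strand, chr17:34959239-34959358 on the minus strand and chr5:135887779-135887918 on the plus strand.
Hspa1a: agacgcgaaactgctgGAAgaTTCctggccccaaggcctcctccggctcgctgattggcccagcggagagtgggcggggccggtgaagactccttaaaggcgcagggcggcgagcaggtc
Hspa1b: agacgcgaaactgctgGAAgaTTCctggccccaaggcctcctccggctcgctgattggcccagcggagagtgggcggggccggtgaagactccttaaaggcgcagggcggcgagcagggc
Hspb1: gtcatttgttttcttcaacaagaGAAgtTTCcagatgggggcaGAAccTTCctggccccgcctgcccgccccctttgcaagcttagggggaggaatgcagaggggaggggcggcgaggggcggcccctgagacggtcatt

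Hspa1a and Hspa1b encode the same inducible HSP70 and lie 9951 bases apart on chromosome 17. Their promoters were nearly the same, with 247 of 250 bases before the start identical, and each held 1 element of 2 units starting at -104. Hspb1 on chromosome 5 held 2 such elements, at -117 and -97. Hsph1 on chromosome 5, which encodes an HSP110, had an element of 3 units after each of its 2 RefSeq starts and one of 2 units before them, and the 2 windows of Dnajb1 on chromosome 8 held none of the heat shock motifs. The heat shock motifs in these windows did not follow the classes in full, since inducible Dnajb1 had none and constitutive Hspd1 held 2 elements of 3 units. Only exact matches inside the windows were sought, so elements that deviate from the motif or lie outside would have been missed. Among the constitutive members, Hspd1 and Hspa5 carried the elements shown next. That of Hspd1 lies on chr1:55088053-55088082, minus strand, before its second RefSeq start, and GENCODE places it in the first exon of a transcript that starts further upstream. That of Hspa5, the endoplasmic reticulum stress element, lies on chr2:34772020-34772049, plus strand, and GENCODE places it in a first exon likewise. Capitals again mark the fixed bases.
Hspd1: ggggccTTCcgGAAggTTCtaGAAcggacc
Hspa5: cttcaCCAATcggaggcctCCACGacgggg

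Of the members whose place has not been given, Hspa8 lies on chromosome 9, Hsp90ab1 on chromosome 17 and Hsp90aa1 on chromosome 12 (GENCODE, GRCm38). To compare levels between genes, CPM of the plate sums were divided by the length of the principal transcript in kilobases. Hspb1, labelled inducible, had the highest mean over the 4 plates, at 549.7 CPM per kb, and Hspa8, the constitutive HSP70 of the cytosol, followed at 532 CPM per kb. These 2 overlapped across plates (423 to 749 and 406 to 717 CPM per kb). Hsp90ab1, the constitutive HSP90, came next at 244 CPM per kb, below every plate of Hspa8. Hsp90aa1, the inducible HSP90, stood at 89.9 CPM per kb and did not overlap with Hsp90ab1. Hspd1, the chaperonin of the mitochondrial matrix, stood at 68.3 CPM per kb and overlapped with Hsp90aa1 above it and with Hspa1b below it. Hspa1b at 36.3, Dnajb1 at 30.1 and Hspa5 at 29.2 CPM per kb could not be ordered, since their ranges over the plates overlapped. Hspa1a followed at 12.05 CPM per kb. It lay below every plate of Hspa5 but overlapped with Hspa1b and Dnajb1, since it reached 20.4 CPM per kb on vehicle replicate 2. Hsph1 was lowest at 1.60 CPM per kb, below every plate of Hspa1a. The inducible members therefore stood both at the top and at the bottom of the order.

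**Figure D1:**
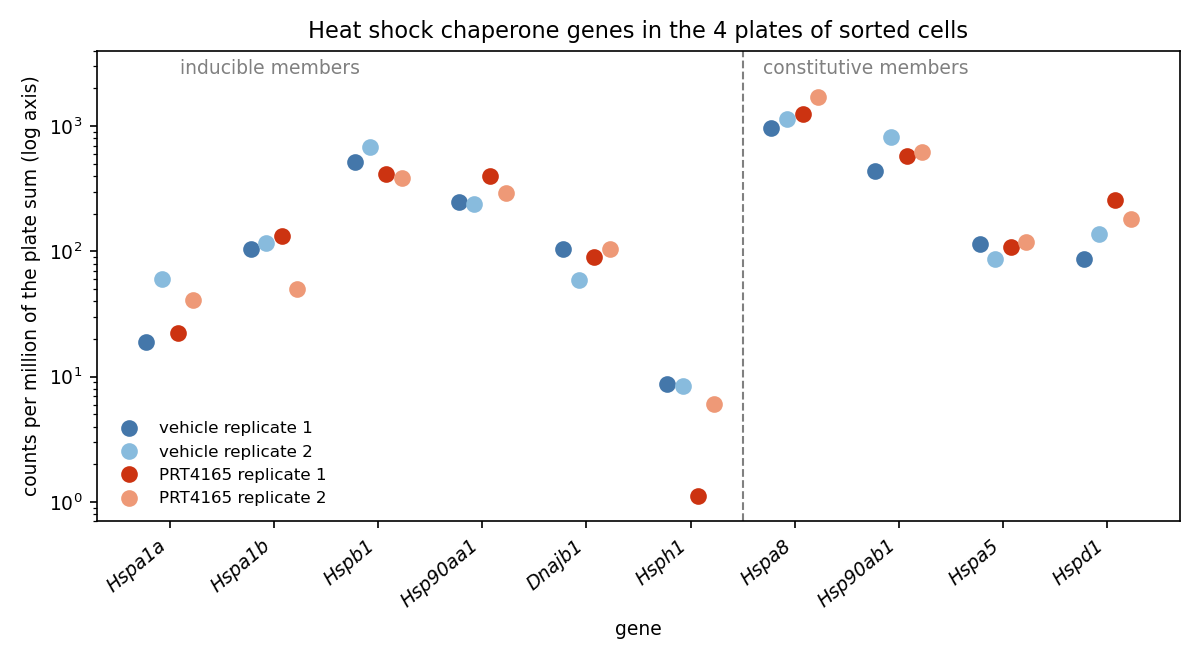
Level of each of the 10 members in each of the 4 plates, as CPM of the plate sum on a log axis, with inducible members left of the dashed line and constitutive members right of it. Hspa8 was highest on every plate, from 972 to 1716 CPM, and Hsph1 lowest, from 1.12 to 8.77 CPM.

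Among the HSP70 genes, Hspa8 was at 972 and 1148 CPM with vehicle and at 1259 and 1716 CPM with PRT4165. Both PRT4165 plates lay above both vehicle plates, within replicate 1 by 1.30 times and within replicate 2 by 1.49 times. The log2 fold change was 0.54 ± 0.42 (SE) with an adjusted p of 0.997 in the quasi-likelihood test of edgeR, and 0.24 without PRT4165 replicate 2. Hspa5, the HSP70 of the endoplasmic reticulum, was at 114.4 and 86.7 CPM with vehicle and at 109 and 119 CPM with PRT4165, so the treatments overlapped. Hspa1a was at 18.99 and 60.4 CPM with vehicle and at 22.4 and 41.2 CPM with PRT4165. Hspa1b was at 106 and 118 CPM with vehicle and at 133.8 and 49.9 CPM with PRT4165. In both inducible genes the 2 plates of 1 treatment differed from each other by more than the means of the treatments did, which were 39.7 and 31.8 CPM for Hspa1a and 111.6 and 91.8 CPM for Hspa1b.

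The HSP90 genes differed from each other in how their plates were ordered. Hsp90aa1 was at 249 and 238 CPM with vehicle and at 399 and 294 CPM with PRT4165, without overlap. In edgeR the log2 fold change of Hsp90aa1 came to 0.52 ± 0.45 (SE) at an adjusted p of 0.997. Hsp90ab1 was at 438 and 816 CPM with vehicle and at 581 and 627 CPM with PRT4165, so that both PRT4165 plates lay between the vehicle plates.

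Next came the helpers of HSP70. Dnajb1, the J-domain protein of the heat shock response, was at 105 and 59.7 CPM with vehicle and at 90.2 and 106 CPM with PRT4165, and the treatments overlapped. Its value on vehicle replicate 1 rested on few cells, since 1 cell held 50.1% of its counts there. Hsph1 was at 8.77 and 8.38 CPM with vehicle and at 1.12 and 6.08 CPM with PRT4165. Its PRT4165 plates lay below both vehicle plates, but 1 cell held between 41.1% and 69.0% of its counts on each plate, and it had 226, 291, 43 and 253 counts in all. Its log2 fold change in edgeR, -1.19 ± 1.12 (SE), had an adjusted p of 0.997. Leaving out PRT4165 replicate 1 gave -0.41, and leaving out PRT4165 replicate 2 gave -2.96.

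Hspb1, a small heat shock protein that keeps unfolded proteins in solution, was at 513 and 676 CPM with vehicle and at 414 and 382 CPM with PRT4165. Both PRT4165 plates were lower than both vehicle plates, and the ratio of PRT4165 to vehicle was 0.807 within replicate 1 and 0.565 within replicate 2. The fold change of -0.53 ± 0.42 (log2, SE) had an adjusted p of 0.997 in edgeR. The 6 markers of the upper hair follicle, Krt79, Gata6, Krt17, Cst6, Defb6 and Klk10, summed to 59425 and 54496 CPM with vehicle and to 30149 and 41268 CPM with PRT4165. Nearly all of this sum was Cst6 and Defb6, and of the 6 markers only Krt79 and Krt17 were themselves lower on both PRT4165 plates than on both vehicle plates. In sums over a plate, fewer cells of a type and less RNA per cell cannot be told apart, and the part of these cells in the level of Hspb1 was not tested. Hspd1 was at 86.5 and 139.1 CPM with vehicle and at 255 and 181.5 CPM with PRT4165. Its PRT4165 plates were higher by 2.95 times within replicate 1 and by 1.30 times within replicate 2. Its fold change in edgeR, 1.004 ± 0.49 (log2, SE) at an adjusted p of 0.997, was the highest of the 10 members, and its unadjusted p was 0.0755.

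No member passed the test. In edgeR's quasi-likelihood test, 0 of 10 members and 0 of 12791 genes tested (0%) had an adjusted p under 0.05, while 630 genes (4.93%; 2.79% higher and 2.13% lower with PRT4165) and none of the members had an unadjusted p under 0.05. DESeq2 called 1.45% of 14988 genes and limma, on mean CPM over cells, 0.00832% of 12015, and no member was among them. The median log2 fold change was 0.11 over the members and -0.02 over all genes tested. With 2 plates each, both plates of one treatment lay beyond both plates of the other in 5 of the 10 members and in 31.7% of all genes tested. Higher with PRT4165 in this sense were Hsp90aa1, Hspa8 and Hspd1 (15.4% of all genes), and lower were Hspb1 and Hsph1 (16.3% of all genes).

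The classes were compared by their summed counts. The inducible members made up 38.3% and 34.6% of the members' counts with vehicle and 32.5% and 24.9% with PRT4165. The log2 ratio of inducible to constitutive counts was -0.80 ± 0.16 with vehicle and -1.32 ± 0.38 with PRT4165 (SD, n = 2 plates each). The difference was -0.52. No p is given for it, since an exact two-sided permutation of 2 against 2 plates cannot go below 0.333. The separation of the treatments depended on Hspb1 and on Hspa8. Without Hspb1 the ratio was -1.73 and -2.18 with vehicle and -1.77 and -2.41 with PRT4165. The treatments then overlapped, and the difference was -0.14. The treatments overlapped without Hspa8 too, at a difference of -0.36, and did not without any one of the other 8 members, which left differences from -0.78 to -0.47. These values, apart from those without Hspb1 or Hspa5, were added after seeing the data. The difference also depended on PRT4165 replicate 2, without which the difference was -0.25, and on PRT4165 replicate 1, without which it was -0.79. The summed level of the inducible members was 1000 and 1161 CPM with vehicle and 1061 and 879 CPM with PRT4165, and that of the constitutive members was 1611 and 2190 CPM with vehicle and 2204 and 2643 CPM with PRT4165.

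Per cell, the constitutive members Hspa8 and Hsp90ab1 were near universal. They had a count in 97.8% and 98.5% of the 274 cells, at a median of 1070 and 609 CPM. The other constitutive members were not, since Hspd1 had a count in 69.0% of cells and Hspa5 in 58.8%. Among the inducible members, Hspa1b had a count in 77.0% of cells, Dnajb1 in 71.9%, Hspb1 in 70.1%, Hsp90aa1 in 62.4%, Hspa1a in 35.8% and Hsph1 in 10.2%. Their levels ran far apart between cells. Hspb1 exceeded 1000 CPM in 47 cells and had no count in 82 others, and Hsp90aa1 exceeded 1000 CPM in 30 cells. Hspa1a exceeded 100 CPM in 31 cells and Hspa1b in 55, while Hspa8 did so in 262. The median cell had a count for 3 of the 6 inducible and 3 of the 4 constitutive members. All 6 inducible members were found together in 6 cells, whereas all 4 constitutive ones were found together in 118.

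**Figure D2:**
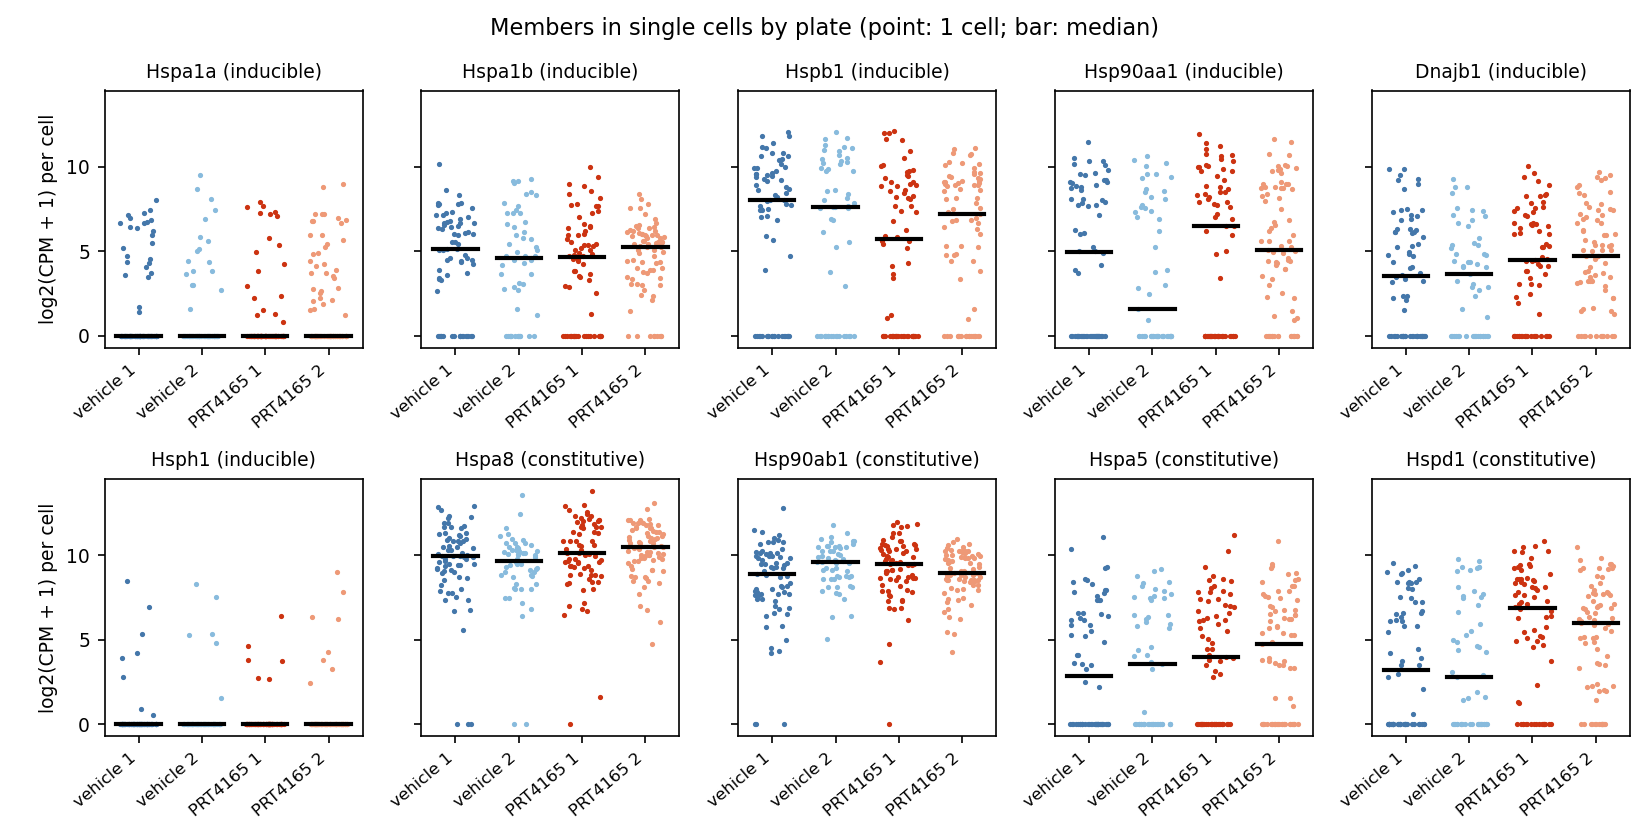
Level of each member in every kept cell as log2(CPM + 1), with 1 panel per gene, 1 column of points per plate and 1 point per cell, and a black bar at the plate's median. Hspa8 and Hsp90ab1 form 1 band with few cells at 0, Hspa1a and Hsph1 have a median of 0 on every plate, and the median of Hspd1 is 3.25 and 2.81 with vehicle against 6.89 and 5.99 with PRT4165.

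In single cells the constitutive members usually outweighed the inducible ones. The median inducible share of a cell's member counts was 25.7% and 28.3% with vehicle and 24.7% and 23.4% with PRT4165. Inducible members held the majority in 58 of 274 cells, namely in 18 of 70 and 13 of 55 vehicle cells and in 17 of 72 and 10 of 77 PRT4165 cells. In 40 of these 58 cells Hspb1 was the largest of the inducible members, and in 13 it was Hsp90aa1. Hspa1a led in none of them and Hspa1b in 2. Over all members, Hspa8 was the largest in 53.6% of cells, Hspb1 in 18.2% and Hsp90ab1 in 17.5%. Over the cells of a plate, Spearman's rho between the summed inducible and the summed constitutive level lay between -0.05 and 0.07.

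Plates differed in depth, so shares of cells were compared after thinning each cell at random to 50000 counts of nuclear genes, which left 59 and 54 vehicle cells and 61 and 72 PRT4165 cells. In this measure the treatments did not overlap in 5 of the 10 members and in 37% of 12778 genes tested, with both PRT4165 plates higher in 4 members and 24.3% of genes and lower in 1 member and 12.8% of genes. The median cell also had more genes detected on the PRT4165 plates, at 3613.5 and 3903 against 3084.5 and 3352 with vehicle, and the part of this in the shares was not tested. Hspd1 then had a count in 49.2% (Wilson 95% interval 36.8 to 61.6) and 46.3% (33.7 to 59.4) of vehicle cells. On the PRT4165 plates the share was 70.5% (58.1 to 80.4) and 72.2% (61.0 to 81.2). The difference of 23.6 percentage points was larger than the spread between plates, whose SD was 2.02 points with vehicle and 1.22 points with PRT4165 (n = 2 plates each), and its exact permutation p was 0.333, the smallest possible. Unthinned, the shares were 55.7% and 58.2% with vehicle and 76.4% and 81.8% with PRT4165. Dnajb1 had a count in 50.8% and 51.9% of vehicle cells and in 62.3% and 69.4% of PRT4165 cells. Hspa5 had one in 47.5% and 44.4% of vehicle cells and in 59.02% and 58.3% of PRT4165 cells. In these 2 genes the PRT4165 plates again lay above both vehicle plates, with an exact permutation p of 0.333 each, and the differences were 14.5 points for Dnajb1 and 12.7 points for Hspa5. They depended on the setting. For Hspa5 the difference was 2.02 points when cells were thinned to 20000 counts and 9.28 points unthinned, and for Dnajb1 it was 4.07 points when 5 counts or more were asked for and 14.2 points unthinned. For Hspd1 it was between 15.7 and 22.2 points in these 3 settings. Hspa1a went the other way, with 37.3% and 24.1% of vehicle cells against 19.7% and 23.6% of PRT4165 cells, but unthinned it was 35.7% and 32.7% against 26.4% and 46.8%, so that its plates then overlapped. In Hspa8, whose shares stood at 96.3% or above on every plate, both PRT4165 plates also lay above both vehicle plates, by 1.91 percentage points on average. The shares of Hspa1b, Hspb1, Hsp90aa1, Hsph1 and Hsp90ab1 overlapped between the treatments.

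**Figure D3:**
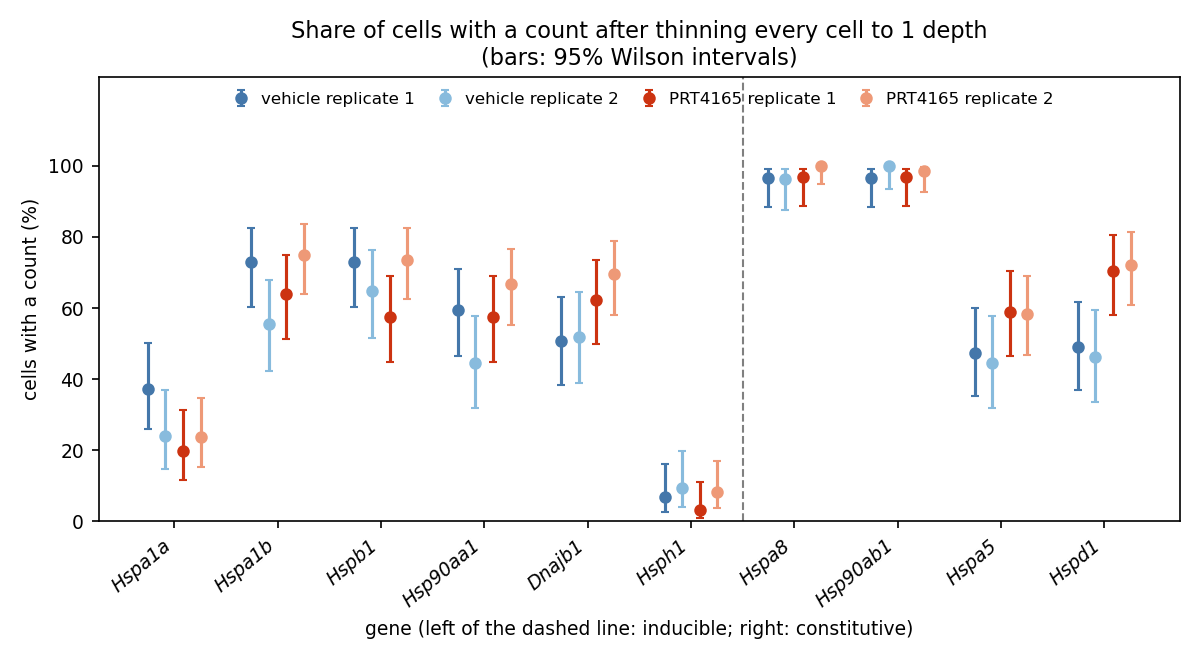
Percentage of cells with a count for each member on each plate after thinning every cell to 50000 counts, with 95% Wilson intervals, inducible members left of the dashed line. For Hspd1 the 2 PRT4165 plates, at 70.5% and 72.2%, stand above the vehicle plates at 49.2% and 46.3%.

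Medians over cells, in which deep cells do not weigh more, were compared next. For Hspd1 the median of log2(CPM + 1) was 3.25 and 2.81 with vehicle and 6.89 and 5.99 with PRT4165. For Hspb1 it was 8.02 and 7.61 with vehicle and 5.73 and 7.20 with PRT4165. Dnajb1 had medians of 3.54 and 3.67 with vehicle and of 4.47 and 4.76 with PRT4165. The medians of Hsp90aa1, Hspa8 and Hspa5 were also higher on both PRT4165 plates, and those of Hspa1b and Hsp90ab1 overlapped. Each of these 6 differences without overlap had an exact permutation p of 0.333. Among the 2032 genes tested that had a count in at least 50% of cells, to which 8 of the members belong, the medians did not overlap in 43.2%, with PRT4165 higher in 31.4% and lower in 11.8%. After thinning to 50000 counts the difference in the median was 6.71 for Hspd1 against 3.41 before, 4.63 for Hspa5 against 1.11 and 0.24 for Dnajb1 against 1.01. In the thinned vehicle cells, Hspd1 had a count in 49.2% and 46.3% and Hspa5 in 47.5% and 44.4%. The median vehicle cell thus had no count of either, and the larger differences cannot be read as larger effects.

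Hspa1a and Hspa1b need a word on counting. Of the stretches of 75 bases, the read length, in the Hspa1a transcript, 52.7% also occur in Hspa1b, and 55.8% of those of Hspa1b occur in Hspa1a, so their counts were in part divided by estimation. Of the values above 0, 32.7% for Hspa1a and 15.6% for Hspa1b were not whole numbers. One or the other had a count in between 75.0% and 92.2% of the cells of a plate. Both had a count in 87 cells, Hspa1b alone in 124, Hspa1a alone in 11 and neither in 52. Hspa1a made up 15.3% and 33.95% of their joint counts with vehicle and 14.3% and 45.2% with PRT4165, so that replicate 1 was below replicate 2 in both treatments. Transcripts of other genes in the annotation, pseudogenes among them, shared 68.6% of the stretches of Hspa8, 57.7% of Hspb1, 53.1% of Hsp90aa1, 33.7% of Hspd1 and 0.736% of Hsp90ab1, and none of Dnajb1, Hsph1 or Hspa5. How far this touched the levels was not tested.

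The members did not move as a single block from cell to cell. Over the cells within a plate, the median of Spearman's rho, each the mean of the 4 plates, was 0.18 over the 6 pairs of constitutive members, 0.08 over the 15 pairs of inducible members and 0.01 over the 24 pairs of one with the other. The highest pairs were Hspa8 with Hsp90ab1 at 0.35 and Hspa8 with Hsp90aa1 at 0.35, so the inducible HSP90 went with the constitutive genes. Hspa1a and Hspa1b, despite their shared promoter sequence, correlated at 0.15 only, and at -0.02 on PRT4165 replicate 2. Hspb1 ran against several of the others, at -0.33 with Hspd1, -0.30 with Hsp90aa1 and -0.26 with Hspa8, and each of these 3 was negative on all 4 plates. With Hspa1a it was positive on all 4 plates, at a mean of 0.23. The points are cells that share a plate and its library preparation, and no p is given. The members also followed the depth and quality of cells to a degree, with Hsp90ab1 at -0.43 against the mitochondrial share and Hspa5 at 0.31 against the number of genes detected.

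**Figure D4:**
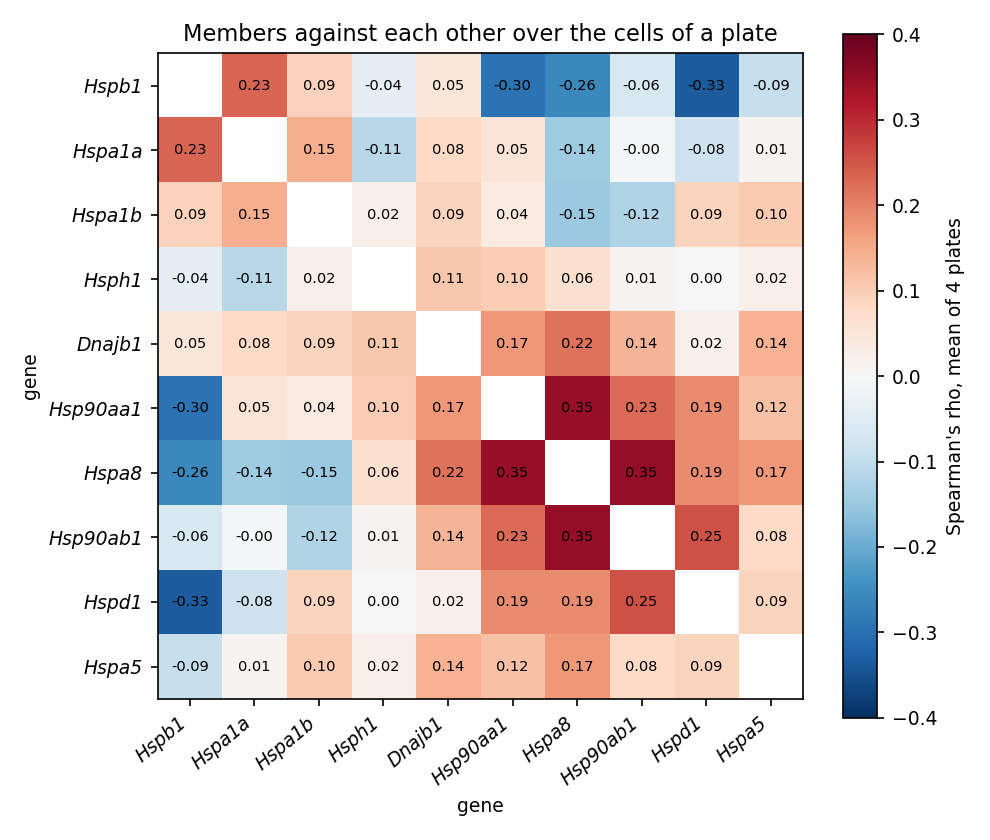
Spearman's rho between members over the cells of a plate, on log2(CPM + 1), as the mean of the 4 plates, with both axes listing the 10 genes and red for positive values. Hspb1 is negative against Hspd1, Hsp90aa1 and Hspa8 (-0.33, -0.30 and -0.26), and Hspa8, Hsp90aa1 and Hsp90ab1 are positive with each other (0.23 to 0.35).

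The genes most like Hspa8 over cells, of 5103 ranked, were Rps27a at 0.58, Rps13 at 0.55, Rps15a at 0.54, Rps20 at 0.52 and Rps4x at 0.51, all of them genes of the small ribosomal subunit. The genes most like the sum of Hspa1a and Hspa1b stood much lower, with Dstn at 0.32, Dsg1a, Btg1 and Hebp2 at 0.30 and Lin7c at 0.29, where the 99th percentile of all genes ranked was 0.23. For Hspb1, ranked after its values were seen, the most alike were Sbsn at 0.60, Clic3 at 0.59, Krt17 at 0.59, Spink5 at 0.57 and Crabp2 at 0.57. Sbsn (suprabasin) and Spink5, which encodes a protease inhibitor of the cornifying layers, are known from differentiating keratinocytes, and Krt17 is a keratin of the hair follicle. Against the summed level of the 6 upper follicle markers, Hspb1 had a rho of 0.54 (0.42 to 0.63 over plates), and against the 5 suprabasal markers Krt1, Krt10, Krtdap, Sbsn and Lor 0.45 (0.27 to 0.60). For Hspd1 these values were -0.21 and -0.27, and the highest rho it had with any marker list was 0.36 with the 7 sebaceous markers.

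Clusters of cells, made without the members, showed the same contrast between genes. There were 10 clusters, lettered by size. Cluster B (42 cells), with Krt10, Krt1 and Krtdap among its leading genes, was suprabasal-like, although Defb6 and Cst6 were among them too. It had 4 of 5 suprabasal and 3 of 6 upper follicle markers raised. Cluster C (31 cells), led by Cst6 and with Krt79 and Defb6 among its leading genes, was upper follicle-like. It had all 6 upper follicle and 3 of 5 suprabasal markers raised, so B and C differed in degree. Cluster F (27 cells), led by Scd1 and with all 7 sebaceous markers raised, was sebaceous-like. The others were not named. Of these, A (54 cells) had Krt5 and Krt15 among its leading genes and E (27 cells) was led by Krt6a. D (30 cells) had Krt15 and Postn among its leading genes and no suprabasal or upper follicle marker raised. H (19 cells) was led by Gm973.

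Hspb1 was at 1242 CPM in the upper follicle-like cluster, 778 CPM in cluster E and 345 CPM in the suprabasal-like cluster. It was at 57.6 CPM in cluster A and 11.6 CPM in the sebaceous-like cluster. In cluster D, without raised suprabasal or upper follicle markers, it was at 404 CPM, with a count in 90% of cells. It had a count in 96.8% of upper follicle-like cells and 29.6% of sebaceous-like cells. In cluster A it lay between 26.3 and 109 CPM on the 4 plates and in cluster E between 491 and 905 CPM, so these ranges did not overlap. Hspd1 was arranged the opposite way, at 612 CPM in the sebaceous-like cluster, where all cells had a count, at 277 CPM in cluster A, and at 55.8 CPM in the upper follicle-like cluster. Hspa8 was at 2369 CPM in cluster A and 1983 CPM in the sebaceous-like cluster, against 776 CPM in the suprabasal-like and 539 CPM in the upper follicle-like cluster. Hsp90aa1 went with Hspa8, at 536 and 527 CPM in the first 2 and 171.9 and 92.6 CPM in the last 2. Both genes were highest in cluster H, Hspa8 at 2440 CPM and Hsp90aa1 at 863 CPM. Hsp90ab1 was the most even member, between 301 and 958 CPM over all 10 clusters. The inducible share of the members' counts was 57.6% in the upper follicle-like and 16.2% in the sebaceous-like cluster. With Hspb1 left out it was 23.1% and 15.9%.

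**Figure D5:**
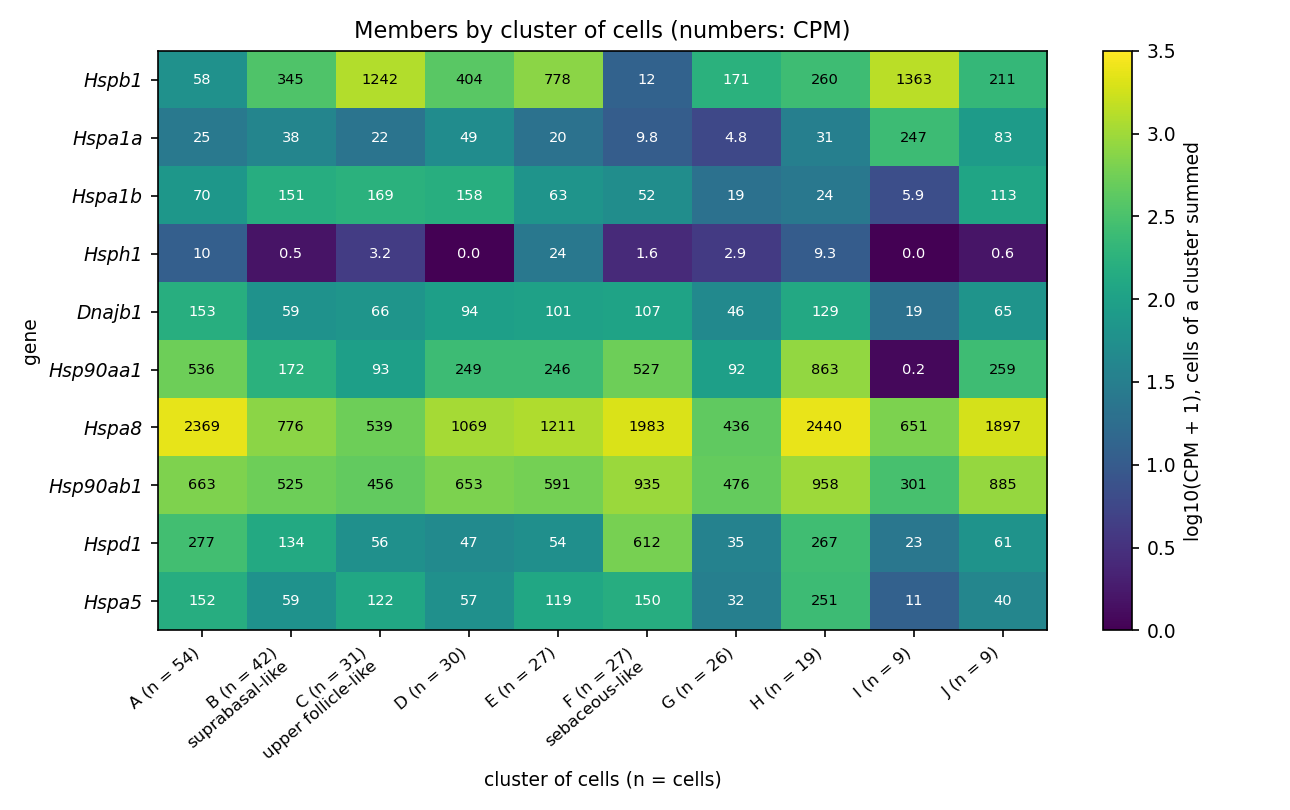
Level of each member (rows) in each of the 10 clusters of cells (columns, n = cells), as the CPM of the summed cells printed in each field and coloured as log10(CPM + 1). Hspb1 is highest in the upper follicle-like cluster C (1242 CPM) and in cluster I of 9 cells (1363 CPM) and lowest in the sebaceous-like cluster F (11.6 CPM), where Hspd1 is highest (612 CPM).

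The share of a plate's cells did not overlap between the treatments in clusters A and F, higher with PRT4165, and in D, E and G, lower. It overlapped in the others. Cell numbers were small, no share was tested, and with 2 plates each an exact permutation p cannot go below 0.333. Cluster E, where Hspb1 was high, held 14.3% and 10.9% of the vehicle cells (10 and 6 cells). On the PRT4165 plates it held 6.94% and 7.79% (5 and 6 cells). The upper follicle-like cluster held 14.3% and 12.7% against 13.9% and 5.19%, with overlap. The part of this in the level of Hspb1 was not tested. The sebaceous-like cluster, in which Hspd1 was highest, held 2.86% and 5.45% of the vehicle cells and 8.33% and 20.8% of the PRT4165 cells. In numbers, this cluster had 2 and 3 vehicle cells and 6 and 16 PRT4165 cells. With its cells left out, a setting chosen after seeing the data, Hspd1 was at 85.8 and 92.4 CPM with vehicle and at 180.2 and 111.9 CPM with PRT4165, still without overlap, and its log2 fold change was 0.79. Hspb1 was then at 525 and 731 CPM with vehicle and at 448 and 482 CPM with PRT4165, and its log2 fold change was -0.33. The plates of Hsp90aa1 then overlapped, at 252.7 and 221 CPM with vehicle and 365.5 and 241 CPM with PRT4165. Within the clusters that had at least 5 cells on every plate, the order of the treatments in Hspd1 held in the suprabasal-like cluster, at 66.1 and 75.5 CPM with vehicle against 249 and 106.7 CPM with PRT4165, but there 1 cell held 27.0% of its counts and the medians over cells overlapped (79.5 and 28.0 against 99.8 and 33.8 CPM). It did not hold in cluster A (109.6 and 387 against 320 and 304 CPM) or in cluster E (25.9 and 116 against 60.3 and 11.6 CPM). Hspb1 overlapped between the treatments in all 3 of these clusters.

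The other genes of the chaperone network, and with them the 12 immediate early genes, were described from 9 lists grouped by role. No list had a called gene, and of 90 genes tested 1 had an unadjusted p under 0.05, against 4.93% of all genes. This was Dnajc3, a J-domain protein of the endoplasmic reticulum, at 29.2 and 56.6 CPM with vehicle and 10.8 and 15.1 CPM with PRT4165, and edgeR gave it an adjusted p of 0.997 at a log2 fold change of -1.65 ± 0.71 (SE). Over all genes tested, 6319 of 12791 had a log2 fold change above 0, at a median of -0.02, and no list was tested as a set. The 14 J-domain genes tested had a median log2 fold change of 0.68, with 11 above 0 and 3 below it, and the 11 cochaperones of HSP90 a median of 0.08, with 9 above 0. The 8 subunits of the cytosolic chaperonin CCT, which folds actin and tubulin, had a median of 0.12. The small heat shock and BAG genes had a median of -0.23 with 2 of 10 above 0. The 19 genes of the endoplasmic reticulum had a median of -0.14 with 6 above 0, and the 8 mitochondrial chaperones one of -0.06 with 4 above 0. Hspe1, the partner of Hspd1 in the mitochondrial chaperonin, named after its values were seen, was at 180.2 and 182.9 CPM with vehicle and 233 and 267 CPM with PRT4165. In edgeR the log2 fold change of Hspe1 was 0.50 ± 0.47 (SE) at an adjusted p of 0.997. Both PRT4165 plates lay above both vehicle plates in 15.4% of all genes tested. The 5 other cytosolic HSP70 and HSP110 genes had a median of 0.46, from -1.28 to 0.53. The 12 immediate early genes had a median of 0.04.

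Hsf1, the factor that switches on the inducible members, was low, at 0.932 and 1.96 CPM with vehicle and 3.98 and 4.45 CPM with PRT4165. Both PRT4165 plates were above both vehicle plates, but the vehicle plates held 24 and 68 counts of it in all, and the log2 fold change in edgeR was 1.62 ± 1.19 (SE) with an adjusted p of 0.997. It had a count in between 4.29% and 15.3% of the cells of a plate. Hsf2, a related factor, was at 15.3 and 6.67 CPM with vehicle and 13.4 and 10.5 CPM with PRT4165, and the treatments overlapped.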

How the data were processed

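The authors mapped reads with Salmon 0.13.1 to the Ensembl mouse transcriptome (mm10, GRCm38) and deposited estimated counts, not normalized, per gene symbol and cell. Of the values above 0, 18.3% were not whole. All 289 columns were matched to samples by title. Cells with at least 1000 genes and at most 50% mitochondrial counts were kept (274). No doublet caller was run, since 1 cell was sorted per well. Counts were summed by plate, rounded, filtered (filterByExpr), normalized (TMM) and tested with edgeR 4.0.16, adjusted by Benjamini-Hochberg over all genes. The SE of a log2 fold change was back-calculated, as its absolute value over the square root of the quasi-likelihood F statistic. DESeq2 1.42.0 and limma 3.58.1 served as alternatives. The common coefficient of variation between plates of a treatment was 0.769 in edgeR. Leiden clusters used 2000 variable genes without members or mitochondrial genes, 15 components and 15 neighbours, scaled within replicate. A cluster was named only from listed markers. The labels do not tie cells to animals, so p-values measure the spread between plates. Reads carry no molecular identifiers, so intervals cover counting error only.

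The members and gene lists were chosen with earlier results of these data known. Named genes were the members, Hsf1, Hsf2, up to 4 network genes per direction with an unadjusted p under 0.05, and the 5 genes most like Hspa8 and most like Hspa1a plus Hspa1b. Hspe1 and the genes most like Hspb1 were named outside this rule, after their values were seen. The replicate numbers are batch tags in the labels and so pair the plates. The deviations of same-numbered plates correlated at 0.04 over 12791 genes.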

Additional observations from a re-analysis of the deposited data

How the results depend on the processing

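No member was called under any alternative, and 0% of genes tested were called except with DESeq2 (1.45%) and with limma on mean CPM over cells (0.00832%). With the replicate block, in the paired fit, it was also 0%, with 498 genes at an unadjusted p under 0.05 against 630. The difference in the log2 ratio of the classes was negative throughout, from -0.79 to -0.25 without each plate in turn. The ratio did not overlap between the treatments, so leaving out 1 plate could not turn this sign. Of 140 refitted log2 fold changes of members, 130 kept their sign, and those of Hspb1, Hsp90aa1, Hsph1, Hspa8 and Hspd1 kept it in every fit. Without each plate in turn these ran from -0.59 to -0.47, 0.35 to 0.71, -2.96 to -0.41, 0.24 to 0.79 and 0.81 to 1.22 in that order. They belong to the 5 members whose plates did not overlap between the treatments. Leaving out 1 plate could therefore hardly turn their sign, and the other fits drew on the same plates. Leaving out each plate in turn, the log2 fold change ran from -0.77 to 0.66 for Hspa1a, -1.07 to 0.25 for Hspa1b, -0.20 to 0.90 for Dnajb1, -0.25 to 0.36 for Hsp90ab1 and -0.11 to 0.58 for Hspa5, so their directions rested on single plates. Hsp90ab1 was also at -0.058 with limma and -0.040 with the stricter cell filter, and Hspa5 at -0.11 over all deposited cells. For shares of cells, the difference in percentage points turned over without thinning in Hspa1a (2.35), Hspb1 (0.905) and Hsp90ab1 (1.45), and at 5 counts or more in Hspa1b (-11.5), Hsph1 (0.0785) and Hsp90ab1 (2.55). Without each plate in turn it ran from -3.41 to 13.9 for Hspa1b, -11.5 to 4.76 for Hspb1, -4.74 to 0.314 for Hsph1 and -2.33 to 1.06 for Hsp90ab1. Medians over cells turned over in Hspa1b (-0.29 when thinned, -0.23 to 0.40 without each plate) and Hsp90ab1 (-0.39 to 0.34 without each plate). The cause of these reversals was not tested. The shares and medians of Hspd1, Hspa5, Dnajb1 and Hsp90aa1 kept their sign in every setting run, but not their size. Apart from the share of Hsp90aa1, these did not overlap between the treatments, so leaving out 1 plate could not turn them. Thinned to 20000 counts, the share difference of Hspa5 was 2.02 points against 12.7, and at 5 counts or more that of Dnajb1 was 4.07 against 14.5 and that of Hsp90aa1 3.40 against 10.1. Pooling all cells kept all 5 genes most like Hspa8 and all 5 most like Hspa1a plus Hspa1b. With 2 plates per treatment, the exact test cannot go below 0.333. Hspa1a and Hsph1 are limited by depth, at 489 to 2098 and 43 to 291 counts a plate.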
